A study of Mus musculus with 4 samples.

Results

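The genes described here are 54 genes of G2 phase and mitosis, chosen by symbol from the 31053 genes of the deposited matrices: CDK1 with its cyclins and regulators, the mitotic kinases, enzymes of the anaphase-promoting complex, the chromosomal passenger complex, kinetochore and spindle proteins, cytokinesis factors, and proteins of chromosome structure and of the nuclear envelope. They were followed across tumour, T, NK, B and myeloid cells in 4 single-cell RNA-seq libraries from mouse lungs bearing small cell lung cancer (SCLC), 1 library per group. The groups were mice given YKL-5-124 at 10 mg/kg daily from Monday to Friday, mice given both agents, mice given anti-PD-1 antibody (clone 29F.1A12) at 200 µg per mouse 3 times a week, and control mice given vehicle and isotype IgG. YKL-5-124 is an inhibitor of CDK7, and PD-1 is an inhibitory receptor on activated T cells. In all groups mouse SCLC cells had been injected into the lung, the whole perfused lung was digested with collagenase D and DNase I, and live cells were sorted by DAPI staining, so each library held tumour and host cells although the label names mouse SCLC as the cell type. The strain, age and number of animals were not stated in the sources used here. With 1 library per group there is no test of any difference between treatments: a gene was called higher or lower when its ratio, computed after adding 10 CPM to each level, passed 1.5-fold. CPM is a gene's UMIs (unique molecular identifiers, 1 per captured RNA molecule) scaled to a common total per group of cells, and is not corrected for gene length, so levels are compared between groups and not between genes. Genes with a mean of at least 10 CPM over the 4 libraries are called measured, and the 95% intervals in parentheses after ratios and shares cover counting error only.

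CDK1 bound to cyclin B drives entry into mitosis, the anaphase-promoting complex with its coactivator CDC20 then marks cyclin B and securin for destruction, and chromosomes separate. CDK1 becomes active only after phosphorylation of its activation loop by the CDK-activating kinase, which is CDK7 with cyclin H and MAT1, and the same trimer phosphorylates RNA polymerase II as part of TFIIH. Transcription of G2 and mitosis genes peaks late in the cell cycle under the MuvB complex with B-MYB and FOXM1, which bind promoters through the cell cycle genes homology region (CHR), often beside CCAAT boxes bound by NF-Y. In the lung most lymphocytes and monocytes are out of the cycle, whereas SCLC is known for a high share of dividing cells.

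The promoters are shown because they carry the elements through which these genes are known to share control, and because the genes named most often below are among them. RefSeq promoters (GRCm38.p6, 250 bases before to 50 after the annotated start) were matched for 48 of the 54 genes. The following 6 are written 5′ to 3′ on the strand of the gene, and capitals mark matches to the CHR letters (TTTGAA or TTCGAA) and to CCAAT on either strand. The genes are Cdk1 (the mitotic kinase), Ccnb2 (cyclin B2), Cdc20 (the coactivator), Ube2c (a ubiquitin-conjugating enzyme of the anaphase-promoting complex), Top2a (topoisomerase II alpha) and Birc5 (survivin, of the chromosomal passenger complex), the last printed as a promoter in this window with no match to either motif.

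Cdk1 (chr10:69352863-69353162, minus strand): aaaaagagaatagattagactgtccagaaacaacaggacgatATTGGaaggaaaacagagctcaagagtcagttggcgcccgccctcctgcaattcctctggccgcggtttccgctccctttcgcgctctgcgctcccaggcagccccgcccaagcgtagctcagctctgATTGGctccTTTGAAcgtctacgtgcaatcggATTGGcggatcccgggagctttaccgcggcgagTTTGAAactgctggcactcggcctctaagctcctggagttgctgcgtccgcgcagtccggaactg
Ccnb2 (chr9:70421505-70421804, minus strand): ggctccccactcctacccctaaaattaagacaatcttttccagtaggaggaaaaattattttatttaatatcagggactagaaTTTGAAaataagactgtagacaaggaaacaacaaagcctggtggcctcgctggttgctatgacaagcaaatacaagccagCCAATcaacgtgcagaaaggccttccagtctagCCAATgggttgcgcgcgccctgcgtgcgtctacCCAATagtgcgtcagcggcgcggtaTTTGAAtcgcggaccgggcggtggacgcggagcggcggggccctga
Cdc20 (chr4:118437294-118437593, minus strand): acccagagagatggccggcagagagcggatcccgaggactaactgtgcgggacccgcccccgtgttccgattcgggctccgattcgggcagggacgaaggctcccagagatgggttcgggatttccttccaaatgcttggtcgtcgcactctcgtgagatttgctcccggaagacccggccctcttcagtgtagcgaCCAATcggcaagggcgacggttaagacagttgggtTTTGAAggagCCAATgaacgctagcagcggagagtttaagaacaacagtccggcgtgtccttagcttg
Ube2c (chr2:164769679-164769978, plus strand): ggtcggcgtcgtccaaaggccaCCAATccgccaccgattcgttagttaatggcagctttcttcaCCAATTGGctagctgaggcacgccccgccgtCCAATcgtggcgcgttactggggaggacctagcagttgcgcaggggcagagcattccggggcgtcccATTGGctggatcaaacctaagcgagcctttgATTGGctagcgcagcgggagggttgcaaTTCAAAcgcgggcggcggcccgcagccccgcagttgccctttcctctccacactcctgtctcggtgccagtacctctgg
Top2a (chr11:99024140-99024439, minus strand): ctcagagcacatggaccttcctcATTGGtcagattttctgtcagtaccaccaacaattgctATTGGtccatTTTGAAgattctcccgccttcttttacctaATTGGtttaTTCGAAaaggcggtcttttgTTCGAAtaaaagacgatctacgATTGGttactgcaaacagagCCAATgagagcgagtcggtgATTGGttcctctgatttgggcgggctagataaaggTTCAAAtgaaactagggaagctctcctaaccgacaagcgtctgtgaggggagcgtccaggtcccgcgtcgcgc
Birc5 (chr11:117848987-117849286, plus strand): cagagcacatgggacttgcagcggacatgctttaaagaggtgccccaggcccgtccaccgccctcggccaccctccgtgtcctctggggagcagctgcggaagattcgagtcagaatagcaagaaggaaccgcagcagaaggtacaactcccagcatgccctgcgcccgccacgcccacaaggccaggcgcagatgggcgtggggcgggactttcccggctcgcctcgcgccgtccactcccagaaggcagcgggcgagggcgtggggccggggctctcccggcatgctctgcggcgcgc

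CHR letters were found in 36 of the 48 promoters, against 19.4% of the 27025 promoters of the table and 13.7% of the 7097 promoters of genes measured in tumour-like cells. CCAAT was found in 37 of the 48 (77.1%), against 37.9% of all promoters and 39.5% of those measured. At least 2 CCAAT matches were present in 29 (60.4%), against 12.2% and 15.8%, and both motifs were present in 30 (62.5%), against 7.70% and 6.02%. Overlapping matches were each counted, both strands were searched, and the 2 motifs were searched separately. Of 48 CHR matches, 35 lay from 100 bases before to 50 bases after the start, and of 98 CCAAT matches, 63 lay within the 100 bases before it. Neither motif was found in the window for Birc5, Nusap1 (a spindle microtubule protein), Tacc3 (a spindle pole protein), Nuf2 (an outer kinetochore protein) and G2e3 (a ubiquitin ligase named for its G2 expression). Ccnb1 (cyclin B1), Cenpe (a kinetochore motor), Tmpo (a lamina-associated protein), Cbx5, Cks2, Gtse1 and Nek2 had CCAAT without CHR letters. Ctcf (a chromatin insulator factor), Anln, Kif20b, Kif2c, Ndc80 and Rangap1 had CHR letters without CCAAT. A match is a description of letters in this window, not a measured binding site.

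**Figure D1:**
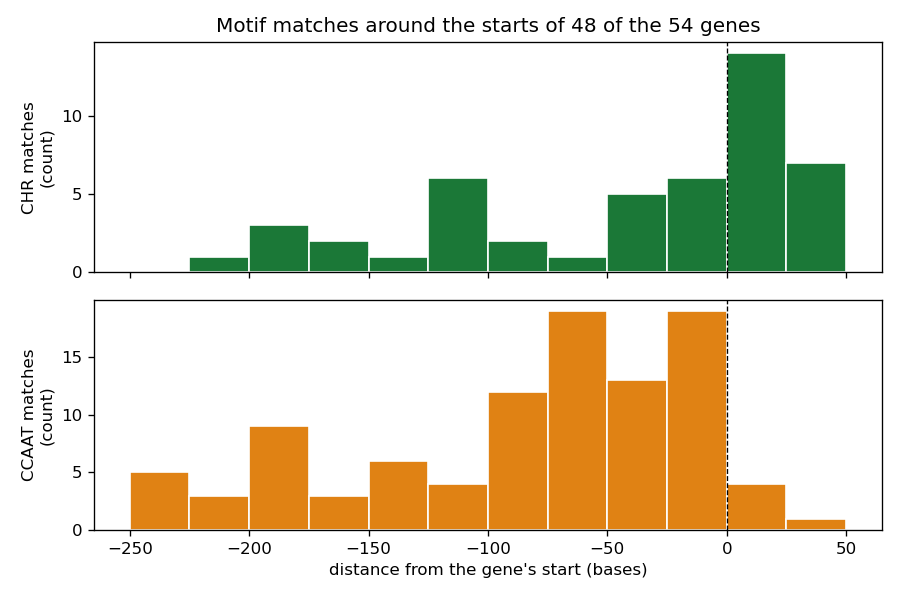
Number of CHR matches (top) and CCAAT matches (bottom) in the promoters of 48 of the 54 genes, in bins of distance from the annotated start in bases. CHR matches gather around the start, and 63 of the 98 CCAAT matches lie within the 100 bases before it.

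Cells were barcodes with at least 500 UMIs, 300 genes and at most 10% mitochondrial UMIs. After removal of likely doublets there were 4014 cells with YKL-5-124, 3911 with the combination, 2676 with anti-PD-1 and 3384 in control, and deposited totals ran between 17329001 and 22950622 UMIs per library. Pairs of libraries shared 429 to 507 barcodes where 12.28 to 21.29 would be shared by chance. In all, 643 barcodes were kept as cells in 2 or more libraries and 404 in all 4. The shallower copies of a shared barcode held a median of 2.44% of the UMIs of its deepest copy. Such copies made up 1329 of the 1490 cells of a shallow cluster whose values are given only among the closing observations (cluster 1), 95 of 2113 tumour-like cells and 26 of 3049 gated T cell-like cells. Some values without them are given below. Barcodes with 10 to 100 UMIs, taken as free RNA, held the 54 genes at 7385 CPM with YKL-5-124, 6565 CPM with the combination and 6828 CPM with anti-PD-1, against 7789 CPM in control. These levels lie above those of T, NK, B and monocyte or macrophage-like cells, and below those of tumour-like cells and, with YKL-5-124 and the combination, of the regulatory T-like cells described below. Markers fitted the classes: in tumour-like cells 14 of 15 SCLC markers averaged at least 10 CPM and summed to 5634 to 5866 CPM, against 53.96 to 70.3 CPM in gated T cell-like cells, in which 11 of 11 T cell markers summed to 9408 to 9810 CPM. Other markers moved between libraries. In gated T cell-like cells 12 neutrophil markers summed to 207 CPM with YKL-5-124, 33.2 CPM with the combination and 18.1 CPM with anti-PD-1, against 18.5 CPM in control. In NK cell-like cells they summed to 263, 31.8 and 23.4 CPM, against 24.0 CPM in control, and in B cell-like cells to 457, 35.2 and 15.8 CPM, against 25.4 CPM in control. The 6 markers of group 2 innate lymphoid cells, which include Areg, Gata3 and Rora, also used by T cells, summed in gated T cell-like cells to 275 CPM with YKL-5-124, 479 CPM with the combination and 205 CPM with anti-PD-1, against 183 CPM in control. B cell-like cells also held 5 erythroid markers at 8558 CPM with YKL-5-124, 6486 CPM with the combination and 5956 CPM with anti-PD-1, against 8522 CPM in control. The part of these markers in the results below was not tested.

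The 54 genes were highest in the tumour-like cells (565, 453, 443 and 652 cells with YKL-5-124, the combination, anti-PD-1 and control). Summed over the list, their level there was 13808 CPM with YKL-5-124, 13273 CPM with the combination and 13138 CPM with anti-PD-1, against 11824 CPM in control. In control, 53 of the 54 had their highest level of 5 cell classes in tumour-like cells. The exception was Lbr, the lamin B receptor, at 175 CPM in NK cell-like, 125 in T cell-like, 122 in B cell-like, 97.4 in tumour-like and 63.5 CPM in monocyte or macrophage-like cells. In B cell-like cells the list summed to 1378 CPM with YKL-5-124, 1448 CPM with the combination and 1505 CPM with anti-PD-1, against 1437 CPM in control, and in monocyte or macrophage-like cells to 1377 CPM with YKL-5-124, 1367 CPM with the combination and 1433 CPM with anti-PD-1, against 1302 CPM in control. The 4 libraries lay close together in these last 2 classes, and T and NK cell-like cells were the classes in which the YKL-5-124 and combination libraries stood apart from the anti-PD-1 and control libraries.

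**Figure D2:**
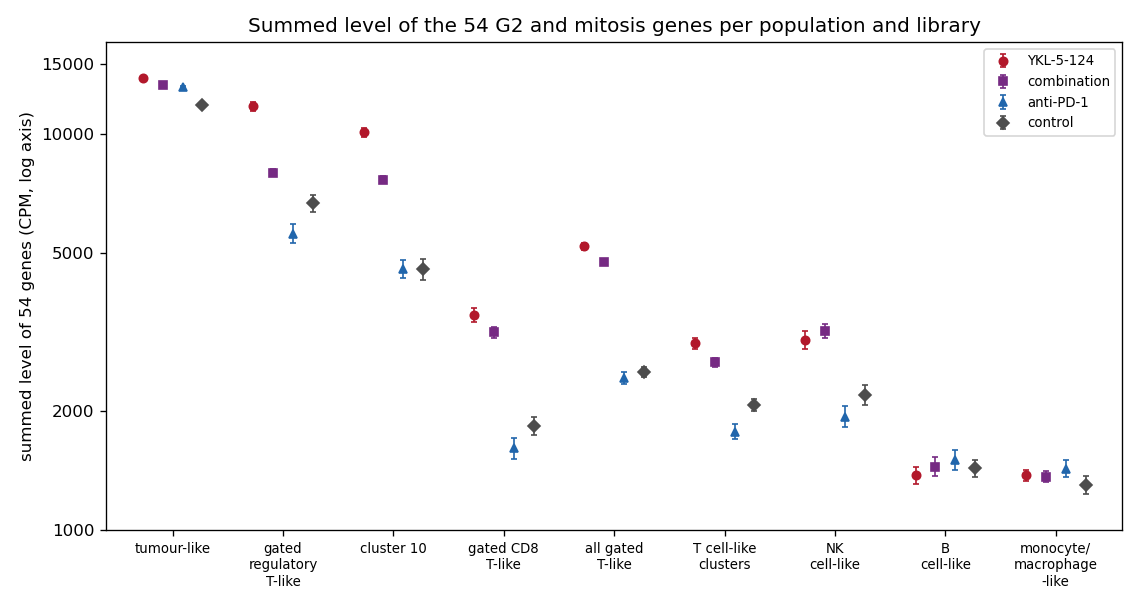
Summed level of the 54 genes in CPM (log axis) in each population, 1 point per library, with exact Poisson 95% intervals. Points for YKL-5-124 and the combination lie above anti-PD-1 and control in every T cell population plotted and in NK cell-like cells, and the 4 points lie close together in B and monocyte or macrophage-like cells. The remaining gated T cell-like cells, described with the subsets below, are not plotted, and their summed levels did not show one order.

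In T cell-like cells the genes of mitosis stood higher in both libraries that received YKL-5-124. Cells were gated on their own UMIs of T cell markers (685, 985, 559 and 820 cells in the YKL-5-124, combination, anti-PD-1 and control libraries), and their summed level of the 54 genes was 5200.4 CPM with YKL-5-124, 4763 CPM with the combination and 2425 CPM with anti-PD-1, against 2511 CPM in control. The summed ratio to control was 2.07 (1.9996 to 2.14) with YKL-5-124, 1.90 (1.84 to 1.96) with the combination and 0.966 (0.924 to 1.01) with anti-PD-1. Of 45 genes with a mean of at least 10 CPM, 38 were higher and 0 lower with YKL-5-124, where 5.76% of all 6806 measured genes were higher and 0.97% lower. With the combination 33 were higher and 0 lower, against 6.24% and 1.13% of all genes. With anti-PD-1 none passed 1.5-fold in either direction, against 2.15% and 0.896%. The median log2 ratios over the 45 genes were 1.08, 0.90 and -0.08 with YKL-5-124, the combination and anti-PD-1, where the medians of all measured genes were 0.08, 0.06 and 0.02. Because a gene can pass the minimum through the library in which it is high, the count was also made over all 54 genes with no minimum, and 42 were higher with YKL-5-124 and 37 with the combination, against 1.51% and 1.69% of all 31053 genes. That background takes in genes with few or no UMIs, which cannot pass once 10 CPM is added. It is therefore not comparable with the 5.76% and 6.24% of the 6806 measured genes.

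All 6 measured genes around CDK1 were higher in gated T cell-like cells with YKL-5-124 and with the combination. Cdk1 was at 64.1 CPM in the YKL-5-124 library, 60.8 in the combination library, 16.6 in the anti-PD-1 library and 24.9 in the control library. Ccnb1 was at 69.1 CPM in the YKL-5-124 library, 48.4 in the combination library, 12.3 in the anti-PD-1 library and 23.3 in the control library, and Ccnb2 at 126 (YKL-5-124), 104 (combination), 43.3 (anti-PD-1) and 34.4 CPM (control). Both cyclin B genes were thus highest with YKL-5-124 and next with the combination, and the YKL-5-124 ratio to control was 2.97 (2.09 to 4.29) for Ccnb1 and 3.67 (2.77 to 4.91) for Ccnb2. Cks1b, a small CDK-binding subunit, was at 137 (YKL-5-124), 125 (combination), 41.9 (anti-PD-1) and 55.0 CPM (control). Cdca3, a trigger of mitotic entry through degradation of WEE1, was at 59.2 (YKL-5-124), 61.1 (combination), 15.2 (anti-PD-1) and 21.7 CPM (control). In each of these genes the anti-PD-1 library lay at or below the control library, except Ccnb2, for which it was slightly above.

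The mitotic kinases followed the same order, 4 of 4 measured being higher with YKL-5-124 and 3 of 4 with the combination. Plk1, which acts from mitotic entry to cytokinesis, was at 41.1 CPM in the YKL-5-124 library, 28.3 in the combination library, 5.78 in the anti-PD-1 library and 10.0 in the control library, a YKL-5-124 ratio of 4.09 (2.45 to 7.17). Aurka, the spindle pole kinase, was at 33.4 (YKL-5-124), 20.5 (combination), 7.94 (anti-PD-1) and 10.0 CPM (control). Aurkb, the kinase of the chromosomal passenger complex, was at 28.5 (YKL-5-124), 34.8 (combination), 13.001 (anti-PD-1) and 13.7 CPM (control) and was higher with the combination than with YKL-5-124, unlike Plk1 and Aurka. Of the 3 genes of the anaphase-promoting complex and related ubiquitin enzymes, 2 were higher with both. Cdc20 was at 69.1 (YKL-5-124), 52.0 (combination), 26.7 (anti-PD-1) and 20.6 CPM (control), and Ube2c at 133 (YKL-5-124), 98.2 (combination), 41.2 (anti-PD-1) and 47.1 CPM (control). G2e3 was the measured gene with the lowest log2 ratios, -0.36 with YKL-5-124 and -0.15 with the combination.

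The largest log2 ratios belonged to Birc5, a subunit of the chromosomal passenger complex. It was at 194 CPM in the YKL-5-124 library, 175 in the combination library, 39.7 in the anti-PD-1 library and 41.2 in the control library, ratios of 4.69 (3.66 to 6.08) and 4.23 (3.33 to 5.44) for YKL-5-124 and the combination over control. Its partner Cdca8 (borealin) was at 86.6 (YKL-5-124), 76.1 (combination), 21.7 (anti-PD-1) and 28.6 CPM (control). For both genes the anti-PD-1 and control libraries were low and close together. Kinetochore genes divided: 4 of 6 were higher with YKL-5-124 and 3 of 6 with the combination. Cenpe was at 57.0 (YKL-5-124), 46.2 (combination), 14.4 (anti-PD-1) and 14.8 CPM (control), and Cenpf, a large kinetochore and nuclear matrix protein, at 58.1 (YKL-5-124), 51.04 (combination), 19.5 (anti-PD-1) and 22.2 CPM (control). Cenpa, the centromeric histone H3 variant, and Hjurp, its chaperone, did not pass 1.5-fold, with YKL-5-124 log2 ratios of 0.37 and 0.38.

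Among spindle proteins and motors 11 of 12 were higher with YKL-5-124 and 10 of 12 with the combination. Nusap1 was at 84.4 (YKL-5-124), 68.9 (combination), 21.7 (anti-PD-1) and 22.2 CPM (control). Kif11, the motor that separates spindle poles, was at 34.0 (YKL-5-124), 31.5 (combination), 10.8 (anti-PD-1) and 6.87 CPM (control), a YKL-5-124 ratio of 4.94 (2.69 to 9.80). Tacc3 was at 58.7 (YKL-5-124), 44.2 (combination), 22.4 (anti-PD-1) and 19.0 CPM (control). Ckap2, a microtubule-associated protein, passed with neither, and Tubb4b, a beta-tubulin, passed with YKL-5-124 alone, with log2 ratios of 0.80 with YKL-5-124 and 0.38 with the combination. Of the chromosome and chromatin genes 7 of 9 were higher with YKL-5-124 and 6 of 9 with the combination. Mki67, the coat protein of mitotic chromosomes used as a proliferation marker, was at 116 (YKL-5-124), 121 (combination), 36.1 (anti-PD-1) and 27.0 CPM (control). Top2a was at 241 (YKL-5-124), 203 (combination), 76.6 (anti-PD-1) and 72.4 CPM (control). Hmgb2, a DNA-bending chromatin protein also made outside mitosis, was at 1341 (YKL-5-124), 1314 (combination), 588 (anti-PD-1) and 639.9 CPM (control). Smc4, a condensin subunit, and Ctcf showed no such order. Smc4 stood at 333 (YKL-5-124), 334 (combination), 361 (anti-PD-1) and 323 CPM (control), and the YKL-5-124 log2 ratio of Ctcf was 0.16. At the nuclear envelope Tmpo was higher with both, Lbr with YKL-5-124, and Rangap1, the GTPase activator of nuclear transport, with neither.

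Combination and YKL-5-124 libraries were close to each other in gated T cell-like cells. Of the 45 genes 0 were higher and 1 was lower in the combination than with YKL-5-124 (background 1.09% and 0.558%), the lower one being Nuf2, at 28.5 (YKL-5-124), 15.6 (combination), 4.33 (anti-PD-1) and 6.35 CPM (control). Against anti-PD-1 alone the combination had 33 higher and 0 lower genes (background 4.47% and 1.32%). These comparisons share libraries with those against control. Without every barcode shared between libraries, 38 genes were higher with YKL-5-124 and 29 with the combination, counts given here without a background. When each cell was given equal weight, 20 and 22 of 36 measured genes were higher with YKL-5-124 and the combination, against 4.05% and 5.23% of all genes.

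**Figure D3:**
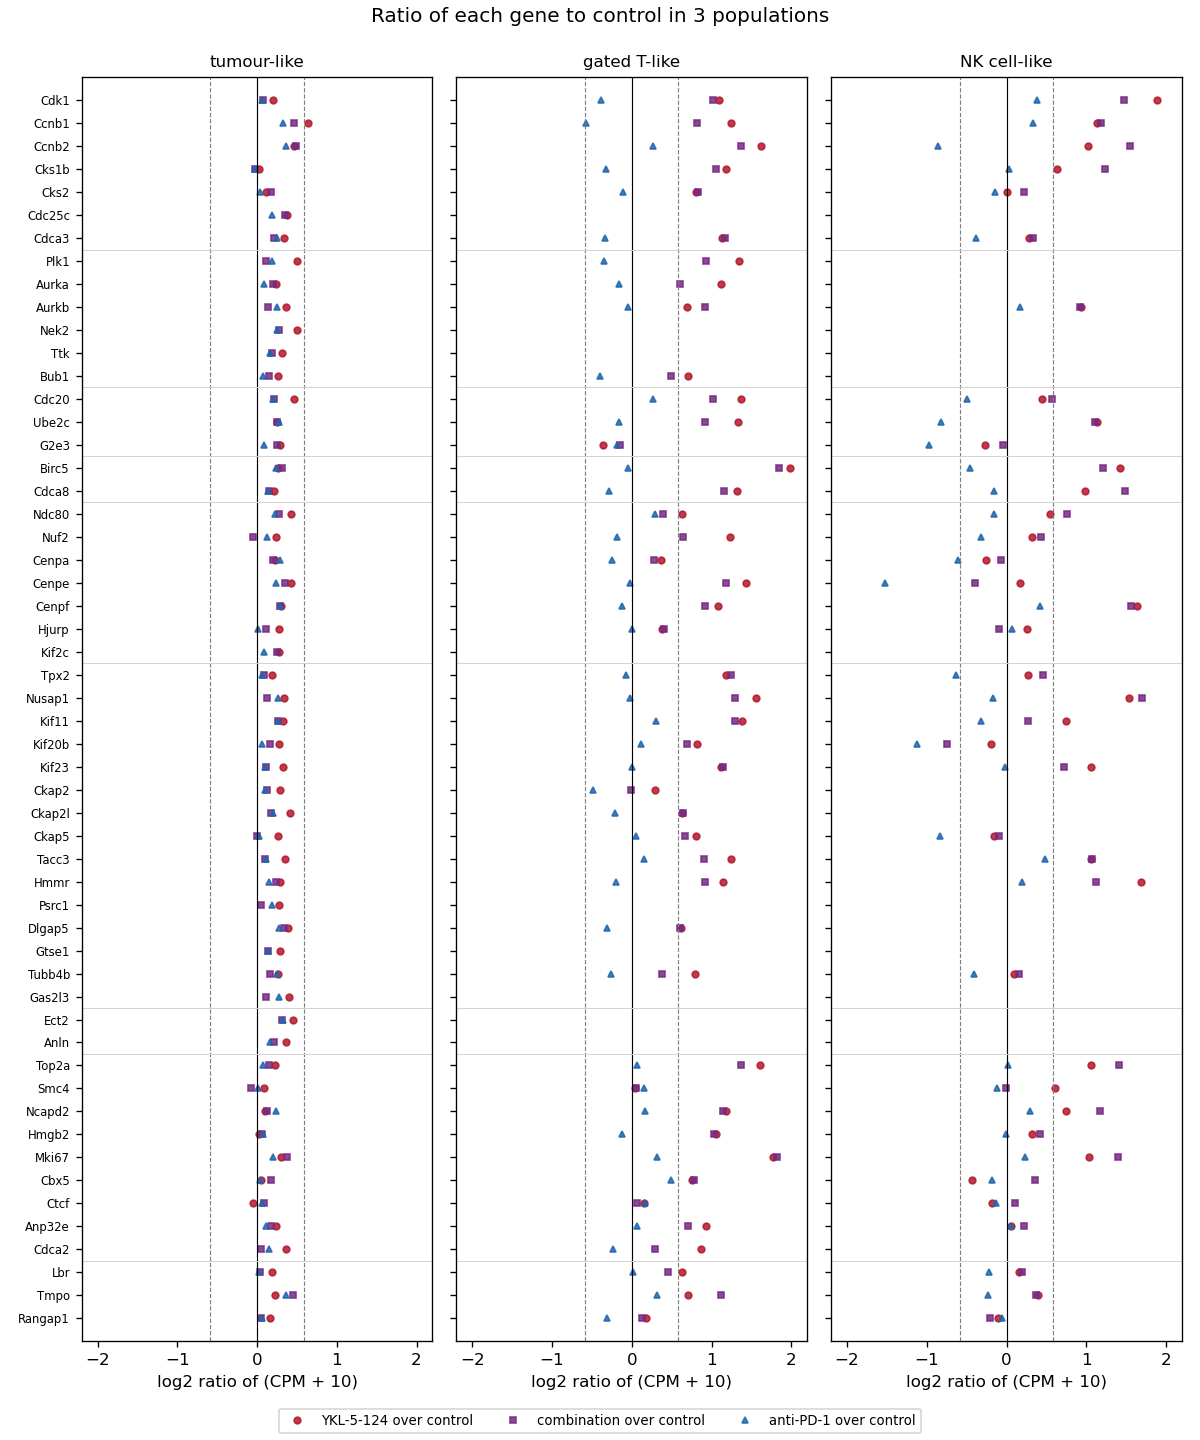
Log2 ratio of (CPM + 10) to control for each of the 54 genes (rows, in role groups separated by grey lines) in tumour-like, gated T cell-like and NK cell-like cells; genes under a mean of 10 CPM are left blank and dashed lines mark 1.5-fold. In gated T cell-like cells 38 genes lie past the upper line with YKL-5-124 and 33 with the combination, and in tumour-like cells 1 gene does with YKL-5-124.

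The T cell difference was then divided by subset, since most of these genes are expressed mainly by dividing cells and few cells can carry a sum. Gated T cell-like cells were called regulatory T-like with at least 1 UMI of Foxp3 or with UMIs of at least 3 of Il2ra, Ctla4, Ikzf2, Tnfrsf18, Tnfrsf4 and Izumo1r, otherwise CD8 T-like with a UMI of Cd8a or Cd8b1. Regulatory T-like cells were 13.1% (10.7 to 15.9) of gated T cell-like cells with YKL-5-124, 22.6% (20.1 to 25.4) with the combination and 10.0% (7.66 to 12.8) with anti-PD-1, against 6.71% (5.09 to 8.64) in control. This gate was applied to unthinned cells of unequal depth, and shares of cells gated after thinning are given below. Regulatory T-like cells held 59.4% of the UMIs of the 54 genes with YKL-5-124, 61.9% with the combination and 36.6% with anti-PD-1, against 34.1% in control. Of cells with at least 10 UMIs of the 45 genes that are less broadly expressed, regulatory T-like cells made up 36 of 56 with YKL-5-124, 57 of 82 with the combination and 8 of 15 with anti-PD-1, against 11 of 21 in control. Without regulatory T-like cells, 15 of 36 measured genes were higher with YKL-5-124 and 21 of 36 with the combination, 0 being lower in either, with median log2 ratios of 0.51 and 0.71. Of all 6655 genes measured in these cells, 3.04% were higher and 1.02% lower with YKL-5-124, and 3.67% and 1.17% with the combination.

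**Figure D4:**
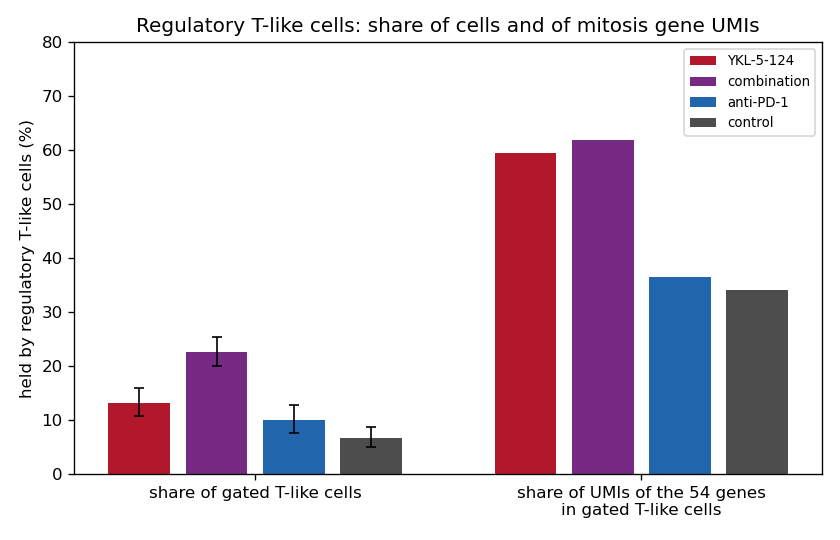
Percent of gated T cell-like cells that were regulatory T-like (left, with exact binomial 95% intervals) and percent of the UMIs of the 54 genes in gated T cell-like cells that these cells held (right), 1 bar per library. Cells were gated without thinning. Regulatory T-like cells held 59.4% and 61.9% of these UMIs with YKL-5-124 and the combination, and 36.6% and 34.1% with anti-PD-1 and in control.

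Within regulatory T-like cells (90, 223, 56 and 55 cells in the YKL-5-124, combination, anti-PD-1 and control libraries) the summed level was 11739 CPM with YKL-5-124, 7979 CPM with the combination and 5600.4 CPM with anti-PD-1, against 6691 CPM in control. The ratio to control was 1.75 (1.66 to 1.86) with YKL-5-124, 1.19 (1.13 to 1.26) with the combination and 0.837 (0.776 to 0.902) with anti-PD-1, and the combination stood at 0.680 (0.657 to 0.703) of YKL-5-124. Of 53 measured genes 36 were higher and 2 lower with YKL-5-124 (background 19.0% and 10.5%), and 15 were higher and 1 lower with the combination (background 17.5% and 8.5%, a share nearer to the background than with YKL-5-124). With anti-PD-1 6 were higher and 12 lower (background 19.6% and 13.2%). The combination against YKL-5-124 had 0 higher and 26 lower (background 6.57% and 6.52%).

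Mki67 in regulatory T-like cells was at 360.2 CPM in the YKL-5-124 library, 232 in the combination library, 159.6 in the anti-PD-1 library and 128 in the control library. Birc5 was at 514 (YKL-5-124), 334 (combination), 201 (anti-PD-1) and 178 CPM (control), and Top2a at 635 (YKL-5-124), 384 (combination), 319 (anti-PD-1) and 277 CPM (control). For all 3 the YKL-5-124 library was highest, the combination second, and anti-PD-1 and control lowest. Ccnb1 was at 179 (YKL-5-124), 97.7 (combination), 45.6 (anti-PD-1) and 112 CPM (control), and Cdk1 at 179 (YKL-5-124), 114 (combination), 63.8 (anti-PD-1) and 116 CPM (control). For these 2 genes, and for Ube2c at 352 (YKL-5-124), 194 (combination), 132 (anti-PD-1) and 269 CPM (control), control was near or above the combination. G2e3 and Gtse1, a G2-phase microtubule-associated regulator of p53, were the 2 genes lower with YKL-5-124, with log2 ratios of -0.81 and -0.74. A total of 50% of the UMIs of the 45 less broadly expressed genes in this subset came from 8 cells with YKL-5-124, 16 with the combination, 3 with anti-PD-1 and 3 in control. NK cell markers summed to 87.4, 73.9 and 109 CPM in the YKL-5-124, combination and anti-PD-1 cells of this subset and to 596 CPM in its control cells. B cell markers summed to 716, 540 and 620 CPM in the same order, against 223 CPM in control. Neutrophil markers summed to 162, 22.0 and 13.7 CPM, against 16.5 CPM in control. The part of these markers in the result was not tested.

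CD8 T-like cells (255, 341, 242 and 310 cells) showed the difference too, at a lower level, with a summed level of 3491 CPM with YKL-5-124, 3156 CPM with the combination and 1612 CPM with anti-PD-1, against 1834 CPM in control. Ratios to control were 1.90 (1.78 to 2.03) with YKL-5-124, 1.72 (1.62 to 1.83) with the combination and 0.879 (0.812 to 0.951) with anti-PD-1. Of 36 measured genes 25 were higher and 0 lower with YKL-5-124 (background 7.3% and 3.88%), 22 and 0 with the combination (background 6.2% and 3.33%), and 1 and 3 with anti-PD-1 (background 5.05% and 4.09%). Birc5 was at 112 CPM in the YKL-5-124 library, 101 in the combination library, 9.15 in the anti-PD-1 library and 15.9 in the control library. Ccnb2 was at 80.1 (YKL-5-124), 62.1 (combination), 7.62 (anti-PD-1) and 14.7 CPM (control), and Mki67 at 37.2 (YKL-5-124), 64.0 (combination), 10.7 (anti-PD-1) and 12.2 CPM (control). Birc5 and Ccnb2 were highest with YKL-5-124 and Mki67 in the combination. Cdc20 was at 51.5 (YKL-5-124), 26.0 (combination), 10.7 (anti-PD-1) and 3.67 CPM (control), and was the gene higher with anti-PD-1. These sums rest on few cells: 5 with YKL-5-124 and 9 with the combination held 50% of the UMIs of the 45 less broadly expressed genes, against 49 with anti-PD-1 and 40 in control. The summed levels of the remaining T cell-like cells did not show one order, and their positive shares after thinning are given below. Cells with a UMI of Cd4 summed to 2039, 4205, 1679 and 2658 CPM, and cells with none of these markers to 2215, 2061, 2206 and 1801 CPM, with YKL-5-124, the combination, anti-PD-1 and in control.

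Clusters drawn without the 54 genes and the other cell cycle lists gave the same division between cells. One cluster, led by Tnfrsf4, Ctla4, Ikzf2 and Areg and called cluster 10 here, took no class name under the naming rule although 11 of 11 T cell markers averaged at least 10 CPM in it, and it held 553 of the 3049 gated T cell-like cells. It had 151, 293, 102 and 93 cells with YKL-5-124, the combination, anti-PD-1 and in control, and was singled out after its values were seen. Its summed level was 10079.8 CPM with YKL-5-124, 7657 CPM with the combination and 4552 CPM with anti-PD-1, against 4555 CPM in control. Of 50 measured genes 43 were higher and 0 lower with YKL-5-124 (background 18.4% and 10.7%), 33 and 0 with the combination (background 15.5% and 8.31%), and 12 and 2 with anti-PD-1 (background 16.6% and 10.2%). Hmmr, a spindle protein, had the largest YKL-5-124 ratio there, at 120.3 (YKL-5-124), 57.0 (combination), 44.5 (anti-PD-1) and 8.69 CPM (control). Tmpo was at 124 (YKL-5-124), 112 (combination), 54.04 (anti-PD-1) and 17.4 CPM (control), and Cdc20 at 134 (YKL-5-124), 97.1 (combination), 60.4 (anti-PD-1) and 17.4 CPM (control). Control levels of Hmmr, Tmpo and Cdc20 there rest on very few UMIs, as the 93 control cells held 230052 UMIs of all genes. In control, 2 cells of the cluster held 50% of the UMIs of the 45 less broadly expressed genes. The anti-PD-1 count is unsteady: it was 23 of 48 with each cell given equal weight, 23 of 53 with doublets kept, 19 of 47 without the 5 richest cells of each library and 6 of 52 with clusters drawn from all variable genes. These alternative counts are given without the share of all genes called under the same setting. Without thinning, at least 10 UMIs of the 45 less broadly expressed genes were found in 42 of 151 cells with YKL-5-124. The counts were 64 of 293 with the combination and 9 of 102 with anti-PD-1, against 4 of 93 in control. Median depths in the cluster were 2267 (YKL-5-124), 2841 (combination), 2345.5 (anti-PD-1) and 1775 UMIs (control), and deeper cells reach 10 UMIs more readily. Cells were also thinned to 800 UMIs, as explained below. Then 16.8% (24 of 143) with YKL-5-124 and 16.5% (45 of 273) with the combination held at least 5 UMIs of these genes. With anti-PD-1 and in control these shares were 6.45% (6 of 93) and 5.81% (5 of 86).

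In the 3 clusters that were named T cell-like (540, 747, 489 and 730 cells), and which leave cluster 10 out, the difference was smaller. The summed level was 2966 CPM with YKL-5-124, 2654 CPM with the combination and 1776 CPM with anti-PD-1, against 2073 CPM in control. Of 36 measured genes 14 were higher and 0 lower with YKL-5-124 (background 3.03% and 1.24%), 12 and 0 with the combination (background 3.13% and 1.18%), and 0 and 9 with anti-PD-1 (background 2.23% and 1.46%). Birc5 was at 107 (YKL-5-124), 69.0 (combination), 16.5 (anti-PD-1) and 22.5 CPM (control), and Mki67 at 20.4 (YKL-5-124), 45.3 (combination), 11.3 (anti-PD-1) and 12.8 CPM (control). Mki67 passed 1.5-fold with the combination and not with YKL-5-124, and Birc5 passed with both. The genes lower with anti-PD-1 included Cdk1, at 22.8 (YKL-5-124), 28.3 (combination), 4.34 (anti-PD-1) and 20.1 CPM (control), and Ube2c, at 55.8 (YKL-5-124), 36.6 (combination), 13.9 (anti-PD-1) and 36.5 CPM (control). By cluster, the one led by Xcl1, Cd8a and Cd8b1 summed to 4655 (YKL-5-124), 3808 (combination), 1572 (anti-PD-1) and 2877 CPM (control). The others lay lower. The cluster led by Cd8b1 and Dapl1 summed to 1613, 1627, 1638 and 1557 CPM, and the one led by Lef1 and Trat1 to 1568, 1536, 2228 and 1610 CPM, in the same order of libraries. The thinned share with at least 3 UMIs, explained below, was 18.6% with YKL-5-124, 15.99% with the combination and 20.5% with anti-PD-1, against 15.9% in control, highest with anti-PD-1, unlike the sum. Without shallower copies of shared barcodes, and with a different thinning draw, this share was 18.1% with YKL-5-124, 15.8% with the combination and 18.9% with anti-PD-1, against 17.6% in control. Anti-PD-1 stayed highest, and control moved further above the combination's share than it had been below it. In the whole class 8 cells with YKL-5-124 and 12 with the combination held 50% of the UMIs of the 45 less broadly expressed genes, against 79 with anti-PD-1 and 49 in control, and without the 5 richest cells of each library 6 genes were higher with YKL-5-124 in place of 14 and none was lower with anti-PD-1.

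Shares of positive cells were compared after every cell had been thinned to 800 UMIs, with shallower cells left out (9, 25, 20 and 18 gated T cell-like cells with YKL-5-124, the combination, anti-PD-1 and in control). Each thinning was a single random draw, and the intervals do not cover the error of that draw. The share of gated T cell-like cells with at least 3 UMIs of the 54 genes was 21.2% (18.1 to 24.4) with YKL-5-124, 24.9% (22.2 to 27.8) with the combination and 17.4% (14.3 to 20.9) with anti-PD-1, against 17.6% (15.01 to 20.4) in control. In B cell-like cells, a mostly resting class of lower depth, the share was 12.7% with YKL-5-124, 11.8% with the combination and 10.0% with anti-PD-1, against 13.5% in control. These cells are given as a class that should mostly lack mitosis genes. With a threshold of 5 UMIs the shares in gated T cell-like cells were 9.02% with YKL-5-124, 9.79% with the combination and 3.52% with anti-PD-1, against 3.87% in control, and in B cell-like cells they were 1.46% with YKL-5-124, 1.22% with the combination and 0.980% with anti-PD-1, against 1.47% in control. The difference between libraries therefore lay at the upper end of the distribution. Without thinning, at least 3 UMIs were found in 64.2% of gated T cell-like cells with YKL-5-124, 68.1% with the combination and 64.6% with anti-PD-1, against 60.4% in control, at median depths of 1996, 2330, 2195 and 1965.5 UMIs. B cell-like cells had median depths of 1452, 1540.5, 1601 and 1509 UMIs.

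Single genes divided the libraries in the same way, at low shares. After thinning, the share of gated T cell-like cells with a UMI of Mki67 was 2.81% with YKL-5-124, 3.85% with the combination and 1.11% with anti-PD-1, against 0.748% in control. The share of B cell-like cells with one was 0.146% with YKL-5-124, 0.204% with the combination and 0.490% with anti-PD-1, against 0.489% in control. For Birc5 the shares were 4.14% with YKL-5-124, 4.27% with the combination and 0.557% with anti-PD-1, against 1.37% in control among gated T cell-like cells, and 0.732% in the YKL-5-124 library, 1.43% in the combination library, 0.245% in the anti-PD-1 library and 0.489% in the control library among B cell-like cells. For Top2a they were 5.03% with YKL-5-124, 4.17% with the combination and 2.97% with anti-PD-1, against 2.37% in control among gated T cell-like cells. For Mki67 and Birc5 the shares in the YKL-5-124 and combination libraries exceeded those of B cell-like cells, and the anti-PD-1 and control shares were nearer to them. In regulatory T-like cells the share with at least 3 UMIs of the 54 genes was 52.3% (41.4 to 63.0) with YKL-5-124, 44.8% (38.0 to 51.8) with the combination and 32.7% (20.7 to 46.7) with anti-PD-1, against 34.0% (21.5 to 48.3) in control. In CD8 T-like cells the shares were 21.3% (16.4 to 26.8) with YKL-5-124, 16.9% (13.03 to 21.3) with the combination and 12.97% (8.99 to 17.9) with anti-PD-1, against 13.1% (9.51 to 17.4) in control, so that control and anti-PD-1 CD8 T-like cells were near the B cell-like cells. The regulatory gate admits deep cells more readily, and the regulatory T-like cells had median depths of 3117, 3631, 3357.5 and 2890 UMIs. With the gate applied after thinning, on at least 1 UMI of Foxp3 or UMIs of at least 2 of the other genes, the positive shares were 47.9% (34 of 71 cells) with YKL-5-124, 45.03% (68 of 151) with the combination and 31.5% (17 of 54) with anti-PD-1, against 29.4% (15 of 51) in control. For CD8 T-like cells under that gate they were 23.6% (45 of 191) with YKL-5-124, 18.4% (48 of 261) with the combination and 14.5% (26 of 179) with anti-PD-1, against 17.2% (41 of 239) in control, which puts control above the B cell-like cells and close to the combination. Under that gate the regulatory T-like share of cells was 10.5% (8.29 to 13.1) with YKL-5-124 and 15.7% (13.5 to 18.2) with the combination. It was 10.0% (7.62 to 12.9) with anti-PD-1 and 6.36% (4.77 to 8.28) in control. Cells in neither subset were positive in 19.1% (79 of 414) with YKL-5-124 and 22.4% (123 of 548) with the combination. With anti-PD-1 and in control these shares were 15.7% (48 of 306) and 14.8% (76 of 512). That gate was chosen after the data had been seen.

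**Figure D5:**
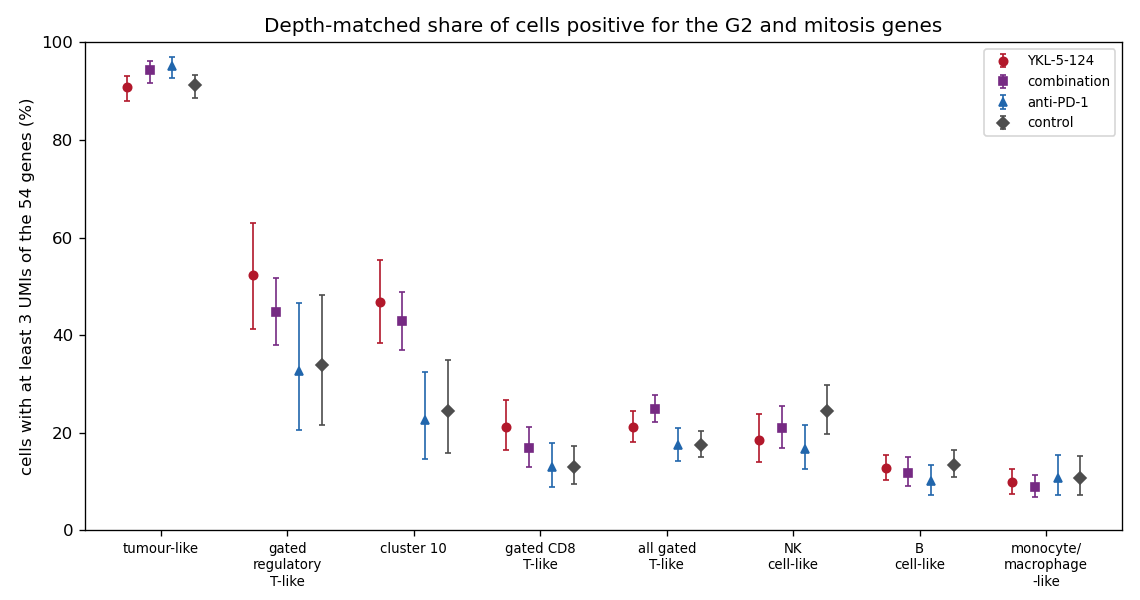
Percent of cells with at least 3 UMIs of the 54 genes after thinning to 800 UMIs (1500 for tumour-like cells), 1 point per library with exact binomial 95% intervals. Tumour-like cells lie between 90.8% and 95.1% in all 4 libraries, and in gated T cell-like, regulatory T-like and CD8 T-like cells the YKL-5-124 and combination points lie above the anti-PD-1 and control points.

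In tumour-like cells the genes of mitosis lay slightly higher in all 3 treated libraries than in control, and within 1.5-fold of it with 1 exception. All 54 genes were measured. With YKL-5-124 1 gene was higher and 0 lower, where 0.269% of 8938 measured genes were higher and 0.123% lower. With the combination and with anti-PD-1 none passed in either direction (background 1.24% and 0.19% for the combination, 0.414% and 0.0% for anti-PD-1). The median log2 ratios were 0.28, 0.17 and 0.16, and those of all measured genes 0.04, 0.02 and 0.00, for YKL-5-124, the combination and anti-PD-1. Above control lay 53, 51 and 53 of the 54 genes. The summed ratios were 1.17 (1.16 to 1.18), 1.12 (1.11 to 1.13) and 1.11 (1.10 to 1.12).

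Ccnb1, the gene past 1.5-fold, was at 188 CPM in the YKL-5-124 library, 166 in the combination library, 149 in the anti-PD-1 library and 117 in the control library, a YKL-5-124 ratio of 1.61 (1.49 to 1.73). Ccnb2 was at 232 (YKL-5-124), 236 (combination), 217 (anti-PD-1) and 166 CPM (control), and Nek2, a centrosome kinase, at 58.4 (YKL-5-124), 48.7 (combination), 47.7 (anti-PD-1) and 38.4 CPM (control). All 3 were lowest in control. Plk1 was at 104 CPM in the YKL-5-124 library, 77.1 in the combination library, 81.8 in the anti-PD-1 library and 70.4 in the control library, and Cdc20 at 257 (YKL-5-124), 213 (combination), 211 (anti-PD-1) and 183 CPM (control). Both were highest with YKL-5-124. Ect2, the activator of RhoA at the cleavage furrow, was at 72.3 (YKL-5-124), 65.2 (combination), 65.7 (anti-PD-1) and 50.4 CPM (control), and Tmpo at 279 (YKL-5-124), 325 (combination), 306 (anti-PD-1) and 236 CPM (control). Tmpo was highest in the combination and Ect2 with YKL-5-124. Cdk1 was at 371 (YKL-5-124), 340.0 (combination), 337 (anti-PD-1) and 321 CPM (control). Its kinase-binding subunit Cks1b was at 315 (YKL-5-124), 305 (combination), 305 (anti-PD-1) and 311 CPM (control), and Hmgb2 at 2454 (YKL-5-124), 2525 (combination), 2552 (anti-PD-1) and 2414 CPM (control). Cks1b, Hmgb2 and Ctcf, the last at 73.0 (YKL-5-124), 80.9 (combination), 79.2 (anti-PD-1) and 75.6 CPM (control), were nearly level across the 4 libraries, and Ctcf was the gene below control with YKL-5-124. Mki67 was at 366 (YKL-5-124), 384 (combination), 341 (anti-PD-1) and 295 CPM (control), Top2a at 979 (YKL-5-124), 929.9 (combination), 884 (anti-PD-1) and 838 CPM (control) and Birc5 at 468 (YKL-5-124), 483 (combination), 459 (anti-PD-1) and 388 CPM (control). The YKL-5-124 log2 ratios of Aurka, Aurkb, Ube2c and Cenpf were 0.24, 0.36, 0.25 and 0.30.

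After thinning to 1500 UMIs, the share of tumour-like cells with at least 3 UMIs of the 54 genes was 90.8% (88.0 to 93.1) with YKL-5-124, 94.3% (91.7 to 96.3) with the combination and 95.1% (92.6 to 97.0) with anti-PD-1, against 91.2% (88.7 to 93.3) in control, close to saturation in all libraries. Without shallower copies of shared barcodes, and with a different thinning draw, the share was 93.75% with YKL-5-124, 93.4% with the combination and 93.8% with anti-PD-1, against 90.9% in control. YKL-5-124 thus moved from below control to above it. With the 45 less broadly expressed genes and at least 5 UMIs the shares were 58.2% (53.9 to 62.4) with YKL-5-124, 58.7% (53.9 to 63.3) with the combination and 61.7% (56.9 to 66.3) with anti-PD-1, against 56.7% (52.7 to 60.6) in control. Of the 3 tumour-like clusters, the one led by histone genes and Top2a held 34.5%, 34.7% and 40.0% of the class with YKL-5-124, the combination and anti-PD-1, against 33.0% in control. Its summed level of the 54 genes was 19076, 17678 and 17594 CPM in those libraries, against 16805 CPM in control. The cluster led by Sprr1a, Cxcl13 and Krt18 summed to 8560.1, 8635, 7491 and 7260.4 CPM, and the one led by Ung, Cplx2 and Ccne2 to 6607, 8193, 7363 and 6909 CPM, with YKL-5-124, the combination, anti-PD-1 and in control. Without every shared barcode 3 genes were higher with the combination and 4 with anti-PD-1, in place of 0, counts given here without a background.

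In NK cell-like cells (259, 371, 287 and 307 cells) the YKL-5-124 and combination libraries again lay above the other libraries, on very few cells. The summed level was 3026 CPM with YKL-5-124, 3191 CPM with the combination and 1937 CPM with anti-PD-1, against 2201 CPM in control. Of 38 measured genes 18 were higher and 0 lower with YKL-5-124 (background 7.53% and 5.53%), 17 and 1 with the combination (background 7.01% and 4.78%), and 0 and 8 with anti-PD-1 (background 7.5% and 5.01%). Cdk1 was at 54.3 CPM in the YKL-5-124 library, 38.4 in the combination library, 12.6 in the anti-PD-1 library and 7.39 in the control library, a YKL-5-124 ratio of 7.35 (2.56 to 28.9). Nusap1 was at 40.2 (YKL-5-124), 46.3 (combination), 5.40 (anti-PD-1) and 7.39 CPM (control), and Cenpf at 38.2 (YKL-5-124), 35.8 (combination), 10.8 (anti-PD-1) and 5.54 CPM (control). The YKL-5-124 and combination libraries lay above both others for all 3. Birc5 was at 86.4 (YKL-5-124), 72.8 (combination), 16.2 (anti-PD-1) and 25.8 CPM (control) and Mki67 at 48.2 (YKL-5-124), 64.9 (combination), 23.4 (anti-PD-1) and 18.5 CPM (control). Kif20b, a mitotic kinesin, was lower in the combination, at 26.1 (YKL-5-124), 14.6 (combination), 8.99 (anti-PD-1) and 31.4 CPM (control). Cenpe was the lowest gene with anti-PD-1, at 28.1 (YKL-5-124), 15.9 (combination), 1.80 (anti-PD-1) and 24.0 CPM (control). A total of 5 cells with YKL-5-124 and 4 with the combination held 50% of the UMIs of the 45 less broadly expressed genes, against 30 with anti-PD-1 and 29 in control. Without the 5 richest cells of each library 2 of 21 measured genes were higher with YKL-5-124 and 5 with the combination (background 7.05% and 7.48%). With each cell given equal weight 5 of 25 were higher with YKL-5-124 and 4 with the combination (background 7.59% and 7.15%). The thinned share with at least 3 UMIs was 18.6% with YKL-5-124, 21.0% with the combination and 16.7% with anti-PD-1, against 24.5% in control, which does not follow the order of the sums. For the 45 less broadly expressed genes it was 3.88% (10 of 258 cells) with YKL-5-124 and 3.55% (13 of 366) with the combination. With anti-PD-1 and in control it was 0.712% (2 of 281) and 1.99% (6 of 302) for the 45 genes, again on few cells. In cells with at least 10 UMIs of those genes SCLC markers summed to 41.5 CPM with YKL-5-124, 140 CPM with the combination and 0 with anti-PD-1, against 574 CPM in control. In the other NK cell-like cells they summed to 42.3 CPM with YKL-5-124, 61.4 CPM with the combination and 61.5 CPM with anti-PD-1, against 91.0 CPM in control. NK cell markers summed to 3961, 5306 and 4506 CPM in such cells with YKL-5-124, the combination and anti-PD-1 and to 6821 CPM in control, below the 9118 to 10133 CPM of the other NK cell-like cells. The part of either in the result was not tested.

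B cell-like cells (692, 496, 419 and 633 cells) and monocyte or macrophage-like cells (572, 666, 256 and 257 cells) each had 23 measured genes, and few passed. In B cell-like cells none passed in either direction with YKL-5-124 (background 3.49% and 1.68%) or with the combination (background 4.01% and 2.71%). With anti-PD-1 1 was higher, Ube2c, at 13.6 (YKL-5-124), 11.4 (combination), 32.8 (anti-PD-1) and 12.2 CPM (control) (background 4.0% and 2.97%). In monocyte or macrophage-like cells Tmpo was higher with YKL-5-124 and with the combination, at 66.5 (YKL-5-124), 85.8 (combination), 54.8 (anti-PD-1) and 40.7 CPM (control). Smc4 was lower with YKL-5-124, at 54.7 (YKL-5-124), 76.0 (combination), 90.1 (anti-PD-1) and 93.8 CPM (control), and Ckap5, a microtubule polymerase, was lower with anti-PD-1, at 15.7 (YKL-5-124), 15.9 (combination), 7.84 (anti-PD-1) and 19.9 CPM (control). The background in this class was 3.64% higher and 3.9% lower with YKL-5-124, 3.63% and 2.64% with the combination, and 3.54% and 2.85% with anti-PD-1. The make-up of the class differed: the cluster led by Lyz2, F13a1 and Chil3 held 53.3%, 45.3%, 31.2% and 29.2% of it, and the one led by C1q genes 18.4%, 20.6%, 35.9% and 38.9%, with YKL-5-124, the combination, anti-PD-1 and in control.

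Other lists of the pathway were read beside the 54 genes. The shares of all measured genes called higher in gated T cell-like cells, 5.76% with YKL-5-124 and 6.24% with the combination, are the background for each count below. In gated T cell-like cells 22 of 30 measured other mitosis genes were higher with YKL-5-124 and 21 with the combination, 0 being lower, with median log2 ratios of 0.85 and 0.75. Ccna2 (cyclin A2) was at 68.0 (YKL-5-124), 54.6 (combination), 9.39 (anti-PD-1) and 14.3 CPM (control), and Kif22, a chromosome arm motor, at 57.6 (YKL-5-124), 50.1 (combination), 10.8 (anti-PD-1) and 14.3 CPM (control). Genes of G1/S and S phase followed, with 19 of 34 and 12 of 34 higher and medians of 0.64 and 0.39. Rrm2, a ribonucleotide reductase subunit, was at 172 (YKL-5-124), 145 (combination), 41.2 (anti-PD-1) and 41.2 CPM (control), and Mcm5, of the replicative helicase, at 90.5 (YKL-5-124), 66.0 (combination), 31.8 (anti-PD-1) and 30.1 CPM (control). In both lists the YKL-5-124 library was highest and the combination next for the genes named. Among the subunits and coactivators of the anaphase-promoting complex 3 of 15 and 2 of 15 were higher, led by Fzr1 (the coactivator CDH1) at 46.6 (YKL-5-124), 49.7 (combination), 21.7 (anti-PD-1) and 19.0 CPM (control). Of the regulators of mitosis gene transcription 2 of 9 and 1 of 9 were higher, the first being Tfdp1 and E2f4 and the second Lin54, a MuvB subunit. These small counts for the complex and the regulators are nearer to the background than those of the mitosis and S phase lists. Of 4 measured brakes on mitotic entry Pkmyt1, the kinase that inhibits CDK1, was higher with YKL-5-124 and none with the combination.

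None of the 3 genes of the CDK-activating kinase passed 1.5-fold with YKL-5-124 or the combination in gated T cell-like or tumour-like cells. Cdk7, the target of YKL-5-124, was at 18.6 (YKL-5-124), 14.95 (combination), 16.6 (anti-PD-1) and 15.9 CPM (control) in gated T cell-like cells and at 19.3 (YKL-5-124), 15.1 (combination), 14.9 (anti-PD-1) and 14.7 CPM (control) in tumour-like cells. Its cyclin Ccnh was at 66.5 (YKL-5-124), 61.0 (combination), 53.3 (anti-PD-1) and 64.1 CPM (control) in tumour-like cells, and Mnat1 (MAT1) at 76.6 (YKL-5-124), 71.5 (combination), 82.4 (anti-PD-1) and 74.3 CPM (control). RNA levels do not measure inhibition of the kinase. In tumour-like cells 1 of 45 measured other mitosis genes was higher with YKL-5-124, Kif20a, the motor of the central spindle, at 86.4 (YKL-5-124), 62.0 (combination), 67.0 (anti-PD-1) and 54.04 CPM (control), and 0 of 43 genes of G1/S and S phase passed with YKL-5-124 or with the combination. Fzr1 was at 65.5 (YKL-5-124), 61.2 (combination), 55.3 (anti-PD-1) and 40.8 CPM (control) there, lowest in control as in gated T cell-like cells, without passing 1.5-fold.

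Set against YKL-5-124 alone, the combination passed 1.5-fold in few genes of tumour-like, CD8 T-like and NK cell-like cells and of the named T cell-like clusters, and lay below it in regulatory T-like cells, where 26 of 53 genes were lower as given above, and in cluster 10. Set against anti-PD-1 alone, it lay above in these populations other than tumour-like cells. These comparisons share libraries with each other and with those against control. Against YKL-5-124 the 54 genes of tumour-like cells gave 0 higher and 0 lower of 54 (background 0.213% and 0.0224%), and against anti-PD-1 0 higher and 0 lower of 54 (background 0.145% and 0.179%). The named T cell-like clusters gave 2 higher and 2 lower of 36 (background 1.53% and 1.18%) against YKL-5-124, Mki67 and Tmpo being higher, and 19 higher and 0 lower of 36 (background 2.46% and 1.37%) against anti-PD-1. CD8 T-like cells gave 2 higher and 2 lower of 36 (background 3.53% and 3.33%) against YKL-5-124. Tmpo was among the higher genes, at 25.7 (YKL-5-124), 70.5 (combination), 36.6 (anti-PD-1) and 41.5 CPM (control), and Cdc20 among the lower. Against anti-PD-1 CD8 T-like cells gave 26 higher and 0 lower of 36 (background 5.63% and 3.74%), and regulatory T-like cells 19 higher and 1 lower of 53 (background 12.4% and 9.93%).

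Cluster 10 had 0 higher and 16 lower of 50 (background 4.44% and 5.23%) in the combination against YKL-5-124, with Mki67 and Top2a among the lower genes. Mki67 in cluster 10 was at 352 CPM in the YKL-5-124 library, 228 in the combination library, 118 in the anti-PD-1 library and 82.6 in the control library, and Top2a at 574 (YKL-5-124), 367 (combination), 188 (anti-PD-1) and 139 CPM (control). YKL-5-124 was highest for both genes and the combination next. Against anti-PD-1 cluster 10 gave 31 higher and 0 lower of 50 (background 10.0% and 8.73%). NK cell-like cells gave 2 higher and 1 lower of 38 (background 5.21% and 4.84%) against YKL-5-124 and 25 higher and 0 lower of 38 (background 5.53% and 5.62%) against anti-PD-1. In B cell-like cells the counts were 0 higher and 1 lower of 23 (background 2.16% and 3.37%) against YKL-5-124 and 0 higher and 5 lower of 23 (background 3.74% and 3.91%) against anti-PD-1, and in monocyte or macrophage-like cells 0 higher and 0 lower of 23 (background 1.76% and 0.698%) and 0 higher and 0 lower of 23 (background 2.43% and 2.23%).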

How the data were processed

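Single-cell RNA-seq counts (10x Genomics 3′ v2) of 4 whole-lung libraries, 1 per group, were deposited by the authors as 1 matrix of UMI counts per library, with a gene list and a barcode list for the series. The matrices name software version 3.0.0 per the file headers, and the submitters' processing notes name bcl2fastq and Cell Ranger. The notes also name hg19 whereas the gene identifiers are mouse, and the sources used here do not give the build and annotation used for counting.

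Barcodes with at least 500 UMIs, 300 genes and at most 10% mitochondrial UMIs were kept. The automatic threshold of Scrublet, run in Scanpy 1.11.5, marked only 5 (YKL-5-124), 2 (combination), 3 (anti-PD-1) and 5 (control) barcodes, so the highest-scoring 0.8% per 1000 cells were removed, 138, 131, 60 and 97 barcodes. Cells were clustered from 2000 variable genes, leaving out the 54 genes and the other cell cycle lists, with 30 components, 15 neighbours and Leiden resolution 1 (leidenalg 0.10.2, igraph 0.11.9), and clusters were named from marker lists. Gated cells were given the class with the highest sum of marker UMIs in the cell, with at least 2 different markers and at least 2 times the marker UMIs of any other class. The gate follows the rule by which these genes were to be described, and the named clusters are given beside it.

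UMI counts were summed per library and population and divided by the total of that population, and ratios were taken on the log2 scale of CPM plus 10, which understates the ratio of low genes. Named classes compared as clusters had at least 100 cells in every library, whereas the unnamed cluster 10 had 93 in control. Intervals at 95% are exact (Poisson for levels, conditional binomial for ratios, Clopper-Pearson for shares) and are narrower than the true error because UMIs come from few cells. The genes named are, per class, up to 6 highest and 6 lowest in T and tumour-like cells and 3 and 3 elsewhere, the best-known members, and up to 4 genes of each other list. Some others are named for their role and were chosen with their values seen. The 54 genes and all lists were chosen with earlier results of these data known. Promoter sequences are RefSeq's. The level and ratio code was tested on simulated data. Python 3.11.15, NumPy 2.4.6, SciPy 1.17.1 and pandas 2.3.3 were used.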

Additional observations from a re-analysis of the deposited data

Results flagged for a closer look

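The median log2 ratio of the measured genes in anti-PD-1 over control pointed in opposite directions in different classes. It was -0.27 in the named T cell-like clusters and -0.16 in NK cell-like cells, and 0.16 in tumour-like cells, 0.17 in B cell-like cells, 0.14 in monocyte or macrophage-like cells and 0.12 in cluster 10. Each value comes from 1 library per group, and the difference between classes was not tested. In gated T cell-like cells, which take in most of cluster 10, the same median was -0.08.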

How the results depend on the processing

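Of 120 counts and share ratios over the list recomputed under alternative settings, 95 kept within 1.5 times or within the interval and 25 did not. Of the other values, which were log2 ratios of single genes and the remaining counts and medians over the list, 3341 stayed, 442 moved and 11 turned round. The list counts below are those of T cell-like clusters and tumour-like cells; NK cell-like cells and cluster 10 stand with their results. Genes higher there with YKL-5-124, 14 as reported, were 3 with cells weighted equally, 3 with doublets kept, 0 with clusters from all variable genes, 38 with the marker gate, 7 without regulatory T-like cells, 37 with cluster 10 included and 6 without the 5 richest cells of each library. Genes higher with the combination, 12 as reported, were 3, 5, 0 and 33 under the first 4 of these, 6 without all shared barcodes and 33 with cluster 10. Genes lower with anti-PD-1, 9 as reported, were 0 with equal weights, 0 with the marker gate, 2 without regulatory T-like cells, 0 with cluster 10 and 0 without the 5 richest cells. In tumour-like cells a pseudocount of 1 CPM gave 2 higher genes with YKL-5-124 in place of 1, and removal of all shared barcodes gave 3 with the combination and 4 with anti-PD-1 in place of 0. The thinned share ratio of T cell-like cells to control was 2.86 (YKL-5-124) and 1.62 (combination) at 5 UMIs, and for the combination 1.42 with the 45 less broadly expressed genes and 1.42 with the marker gate. The counts in this paragraph are given without the share of all genes called under the same setting. The cause of the changes was not tested.

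Log2 ratios that turned round were, with clusters from all variable genes, those of Cks1b (-0.16), Cdca8 (-0.038) and Top2a (-0.53) in T cell-like cells with YKL-5-124, and of Ccnb2 (-0.34), Birc5 (-0.31) and Top2a (-0.48) with the combination. With cluster 10 included, Cenpf with anti-PD-1 was 0.10. In cluster 10 with doublets kept, anti-PD-1 gave 0.40 for Bub1 and 0.17 for Ckap2. Without the 5 richest cells, NK cell-like cells gave -0.0035 for Cks1b with YKL-5-124 and -0.20 for Ube2c with the combination. The marker gate, equal weights and clusters from all variable genes were planned, and the alternatives on shared barcodes, cluster 10 and richest cells were chosen after seeing the data.

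No paired analysis was possible because each group has 1 library; leaving out a library was likewise not run. Low genes are limited by depth: in gated T cell-like cells 9 of the 54 genes averaged under 10 CPM.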

Other observations

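The shallow cluster 1 held 347, 351 and 444 cells with YKL-5-124, the combination and anti-PD-1, against 348 in control, at a median of 816.5 UMIs over all 4 libraries, and 1329 of its 1490 cells were shallower copies of barcodes kept in another library. The 54 genes summed there to 11879 CPM with YKL-5-124, 12812 CPM with the combination and 13854 CPM with anti-PD-1, against 13152 CPM in control. Cdk1 was at 379, 405 and 393 CPM, against 352 CPM in control, and Cdc20 at 222, 278 and 357 CPM, against 303 CPM in control, in the same order of libraries. SCLC markers summed to 4924, 5638 and 5549 CPM, against 5614 CPM in control. Erythroid markers summed to 5083 CPM in the YKL-5-124 cells of the cluster, 67.9 CPM in the combination and 110 CPM with anti-PD-1, against 61.1 CPM in control. Neutrophil markers summed to 2016 CPM with YKL-5-124, 286 CPM with the combination and 309.6 CPM with anti-PD-1, against 229.9 CPM in control, and monocyte or macrophage markers to 835 CPM, 921 CPM and 338 CPM, against 259 CPM in control. The part of these markers in the sums of the 54 genes was not tested.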
